A study of Mus musculus with 90 samples.

Results

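The clustered histone genes are the genes for the core histones H2A, H2B, H3 and H4 and the linker histone H1 that sit side by side in a few stretches of the mouse genome. Members were the genes of the deposited table of RPKM (a gene's reads scaled by its length and by the library's mapped reads) whose symbol begins with Hist1h, Hist2h, Hist3h or Hist4h and that reached an RPKM of 1 in at least 2 of the 90 libraries of all groups. The table held 69 such symbols among 24543 genes, and 34 passed. They comprised 3 H1, 10 H2A, 5 H2B, 9 H3 and 7 H4 genes, with 27 on chromosome 13, 6 on chromosome 3 and 1 on chromosome 11. The RPKM values themselves chose these genes, so that their presence in the cells is not a finding. Just inside the limit were Hist1h4d, whose highest values were 1.36 and 1.24 RPKM, and Hist1h3g, at 1.32 and 1.01. Just outside were Hist1h4c, at 1.17 and 0.996, and Hist1h2ab, at 1.33 and 0.939. Of the 35 symbols left out, 10 reached the limit in 1 library and 25 in none.

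The libraries came from cultured mouse bone marrow macrophages (BMMs) and osteoclasts, the bone-resorbing cells that BMMs form. In the first experiment, BMMs of Irf8+/+ (labelled IRF8WT) and Irf8-/- (labelled IRF8KO) mice were sampled in M-CSF (day 0), which keeps macrophages alive and dividing, and after M-CSF plus RANKL, the cytokine that drives osteoclast formation, on days 4 and 8. IRF8 is a transcription factor of macrophages and restrains osteoclast formation. Each group had 3 libraries, except IRF8WT on day 4, which had 2 (replicates 1 and 3). In the second experiment Irf8-/- BMMs were transduced with human IRF8 constructs labelled hIRF8WT, hIRF8G388S or hIRF8379-389, and these cells, with others labelled mock, were sampled on the same days, with 3 libraries a group, or 2 for mock, hIRF8WT and hIRF8G388S on day 8. In the third, macrophages of these 4 kinds were untreated, given IFNg, or given IFNg plus LPS for 1, 4 or 8 h, with 2 libraries a group. The labels do not say how long IFNg was given, what share of cells was transduced, or whether replicates came from separate animals. The p-values below therefore measure the spread between libraries, which may be technical. Mice of both sexes were used, and no age is stated. The constructs were put into Irf8-/- cells, and the genotype of the mock cells is not stated.

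Most clustered histone genes are replication-dependent: their mRNA accumulates in S phase, when new DNA must be wrapped, and is removed when replication ends. These mRNAs normally have no poly(A) tail and end in a short stem-loop that the stem-loop binding protein SLBP recognises for processing, translation and decay. A few of the genes, known from their human counterparts, also give polyadenylated transcripts in cells outside S phase, among them Hist1h1c, Hist1h2bc, Hist2h2be and Hist1h2ac. The labels name total RNA extraction and an Illumina library preparation, and do not say whether poly(A)-tailed RNA was selected.

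The stem-loop shows which members carry the signal of the non-polyadenylated form and how far their annotated transcripts run beyond it. Each GENCODE M21 transcript (build GRCm38, the same assembly as mm10) was searched over its whole length. The stretch sought had 16 bases, 6 of them paired with 6 others around a loop of 4 bases. It had to begin with GG and end with CC, and its loop had to read TTT or TCT followed by A, C or T. Such a stretch was found in 146 of 141767 transcripts, or 0.103%, and in transcripts of 26 of the 34 members. In 17 members its letters were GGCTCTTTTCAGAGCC. The 26 bases around it follow, 5′ to 3′, for the members that the results turn on, with the stem-loop in capitals.
Hist1h1c: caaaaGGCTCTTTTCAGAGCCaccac
Hist2h2aa1: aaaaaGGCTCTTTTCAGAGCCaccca
Hist3h2a: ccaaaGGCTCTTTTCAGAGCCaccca
Hist2h3c2: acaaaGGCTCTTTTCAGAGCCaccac
Hist1h4i: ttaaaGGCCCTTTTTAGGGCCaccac
Hist1h4h: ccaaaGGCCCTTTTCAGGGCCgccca
Hist1h3c: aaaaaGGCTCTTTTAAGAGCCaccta
The annotated transcript ended 35 bases after the stem-loop in Hist2h2aa1, 46 in Hist1h4h and 74 in Hist1h3c. It went on for 840 bases in Hist1h1c, 1643 in Hist3h2a, 377 in Hist2h3c2 and 330 in Hist1h4i. No such stretch was found in the transcripts of Hist1h2bc and Hist2h2be, the most abundant H2B members, nor in those of 6 other members. A match here is a description of the letters, and no match says only that they are not in these annotated transcripts.

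The stretch before the start site shows which short motifs members hold outside the transcript. RefSeq (GRCm38.p6) gave 250 bases upstream of the start for 31 of the 34 members, and none for Hist1h2bc or Hist2h2be. These windows are not all separate. Those of Hist1h2ag and Hist1h2bj, of Hist1h2ae and Hist1h2bg, and of Hist1h2ak and Hist1h2bn overlap on opposite strands. A site in such an overlap counts for both genes, so the counts are of members and not of separate sites. Hist2h2aa1 and Hist2h2aa2 share a long stretch of letters. CCAAT, read on both strands, was present in 23 of the 31 members (74.2%), against 34.5% of 27025 promoters of all genes. The letters TATAAA were found in 13 members (41.9%), against 12.97% of all promoters. ATTTGCAT, the octamer known from H2B promoters, was found in 4 (12.9%), against 1.61%, and Hist1h2ae and Hist1h2bg shared the same octamer site. AAACACA, an element known from H1 promoters, was found in 3 members (9.68%), the 3 H1 genes, against 6.22% of all promoters. The following promoters of Hist1h1c (chr13:23738557-23738806), Hist3h2a (chr11:58954435-58954684) and Hist2h2aa1 (chr3:96245247-96245496) are on the plus strand, with matches to these motifs in capitals, ATTGG and ATGCAAAT being CCAAT and the octamer on the other strand.
Hist1h1c: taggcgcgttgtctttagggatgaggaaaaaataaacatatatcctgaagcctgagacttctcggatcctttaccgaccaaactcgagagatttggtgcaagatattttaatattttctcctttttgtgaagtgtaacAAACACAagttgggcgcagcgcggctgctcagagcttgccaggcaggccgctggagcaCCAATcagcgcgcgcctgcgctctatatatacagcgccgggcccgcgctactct
Hist3h2a: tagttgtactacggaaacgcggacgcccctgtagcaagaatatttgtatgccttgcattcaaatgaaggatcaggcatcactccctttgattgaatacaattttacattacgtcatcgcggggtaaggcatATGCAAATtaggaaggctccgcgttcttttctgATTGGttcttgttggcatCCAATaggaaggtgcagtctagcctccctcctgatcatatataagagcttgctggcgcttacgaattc
Hist2h2aa1: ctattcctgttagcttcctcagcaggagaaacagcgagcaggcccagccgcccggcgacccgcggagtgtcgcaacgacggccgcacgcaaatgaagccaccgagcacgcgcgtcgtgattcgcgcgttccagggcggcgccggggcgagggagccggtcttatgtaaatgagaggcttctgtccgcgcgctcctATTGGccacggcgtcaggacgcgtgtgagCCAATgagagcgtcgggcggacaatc
All 3 held CCAAT within the last part of the window, and the octamer was found in Hist3h2a alone among them. Other members did not share this: Hist2h3c2 and Hist1h4h held none of these motifs, and Hist1h4i held TATAAA alone.

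On the RPKM scale, which is per length, 4 members made up 88.8% of the summed member RPKM over all libraries. They were Hist1h2bc (H2B), with a mean of 59.9 RPKM over the 90 libraries, Hist2h2aa1 (H2A), with 34.4, Hist3h2a (H2A), with 31.1, and Hist1h1c (H1), with 26.7. The next were Hist2h2be (H2B), at 3.42, Hist1h4i (H4), at 2.75, Hist2h3c2 (H3), at 2.70, and Hist1h4h (H4), at 1.37. The mean of 25 members was under 1 RPKM. The sources used here do not name the authors' gene annotation, and this order rests on its gene lengths. The members together took 0.0141 to 0.151% of a library's summed RPKM, with a median of 0.0323%.

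Near-copies limit which gene a read can be given to. The annotated transcripts of Hist2h2aa1 (chr3:96245497-96246082) and Hist2h2aa2 (chr3:96239749-96240276) agreed at 528 of 528 compared bases. In 72 of 90 libraries their values stood within 1% of the median ratio of 32.3. Hist2h3c2 and Hist2h3c1 (96.7% identical) stood within 1% of a ratio of 3.13 in 86 of 90 libraries. The values of each pair moved as 1 measurement, so the levels of Hist2h2aa2 and Hist2h3c1 are not described apart from their partners. Both were tested as members, so counts of called members can hold such a measurement 2 times. Of 3060 member values, 843 in 28 members were above 0 and under 0.001 RPKM, which is less than 1 read over 500 bases at any depth here, so values are printed as under 0.001 at that point.

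Libraries held 0.218 to 122 M alignments (median 41.1 M). The shallowest was 1 untreated hIRF8WT macrophage library, and the next lowest had 15.6 M. In 4 libraries of the first experiment (IRF8WT day 4 replicate 3, IRF8KO day 4 replicate 3 and IRF8KO day 8 replicates 2 and 3) short genes were read higher than in the other libraries. Across genes, which are not independent replicates, the Spearman correlation of exon length with the library's deviation from the experiment's mean was -0.52 to -0.42 in them. Many members are short, but exon lengths ran from 312 bases in Hist1h4k to 7425 in Hist1h1d, with 2620 in Hist2h2be and 2146 in Hist3h2a. Counts and the values that turn on these 4 libraries are given with and without them. The Irf8 transcript checked the labels: it was at 32.5 to 34.2 RPKM in IRF8KO against 69.1 to 74.0 in IRF8WT on day 0, at 18.3 to 24.02 in mock and at 47.4 to 73.6 with hIRF8WT. A value over the whole gene does not show which exons the reads cover. In untreated macrophages Irf8 was at 68.5 to 77.5 in mock and 64.1 to 146 with hIRF8WT. It was at 59.5 to 63 with hIRF8G388S and 59.6 to 60.02 with hIRF8379-389, so it did not separate mock from the constructs there. With IFNg alone it was at 160 to 165 in mock and at least 188 with the constructs. After 4 h of LPS it was at 102 to 104 in mock and at least 139 with the constructs. At 1 h and 8 h of LPS all mock libraries also lay below all construct libraries. All 5 macrophage markers on a fixed list had a mean of at least 1 RPKM in every first-experiment group, and all 6 osteoclast markers did so on days 4 and 8. In mixed cultures, fewer cells of a type and less RNA per cell cannot be told apart.

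On day 0 in M-CSF alone, the most abundant H1 and H2A members were lower in Irf8-/- than in Irf8+/+ macrophages, while 3 members of low level were higher. Differences were tested with limma on log2(RPKM + 1), with Benjamini-Hochberg adjustment over all 11530 genes at or over 1 RPKM in at least 2 libraries of the experiment. Of the 34 members, 28 passed that filter. A member that passed only through the group where it was high had to differ, so the counts describe the 28. Between genotypes 11 of them passed an adjusted p of 0.05, with 3 higher and 8 lower in IRF8KO, against 40.2% of all genes tested (26.5% higher and 13.7% lower). The share called in either direction lay near the background. With each near-copy pair counted once, and without the member that passed through IRF8KO day 0 (Hist1h2bj), the counts were 2 and 6. Their median log2 difference was -0.08, and that of all genes tested was 0.12.

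Hist1h1c (chr13:23738808-23740367) encodes a linker histone, which binds DNA where it enters and leaves the nucleosome. It was at 13.4, 14.1 and 14.3 RPKM in the IRF8KO libraries and at 54.1, 47.4 and 48.3 in the IRF8WT libraries. The groups did not overlap, and the log2 difference was -1.77 (SE 0.16, adjusted p = 2.74e-07). Hist2h2aa1, which encodes an H2A, was at 2.97, 3.34 and 2.54 RPKM in IRF8KO and 25.6, 21.7 and 22.4 in IRF8WT. All IRF8KO libraries were far below all IRF8WT libraries, with a log2 difference of -2.62 (SE 0.33, adjusted p = 1.04e-05). Hist3h2a (chr11:58954685-58956830), an H2A gene that lies apart from the large clusters, was at 11.9, 9.59 and 8.99 RPKM in IRF8KO and 52.1, 45.3 and 51.5 in IRF8WT. Its groups did not overlap either, at a log2 difference of -2.19 (SE 0.19, adjusted p = 2.49e-07).

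The H2B members differed among themselves on day 0. Hist1h2bc (chr13:23684199-23692908) was at 23.7, 26.8 and 28.4 RPKM in IRF8KO and 30.2, 29.2 and 30.1 in IRF8WT. The IRF8KO values were slightly lower without overlap, and the log2 difference of -0.18 (SE 0.32, adjusted p = 0.707) did not pass. That SE is pooled over all groups, and in IRF8KO the SD was 127 RPKM on day 4 and 2.38 on day 0. The q-value of Hist1h2bc in the authors' deposited table for day 0 was 0.0214. Hist2h2be (chr3:96221119-96223738) was at 2.60, 2.18 and 2.60 RPKM against 6.65, 6.55 and 6.69, a log2 difference of -1.14 (SE 0.16, adjusted p = 3.79e-05) with no overlap. Hist1h2bj, an H2B of low level, was at 1.03, 0.738 and 1.09 RPKM in IRF8KO and under 0.001 in the 3 IRF8WT libraries. It passed the filter only through IRF8KO day 0, so its call carries no weight and its p is not given.

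Among the H3 genes, Hist2h3c2 (chr3:96238108-96239127) was at 0.557, 0.145 and 0.516 RPKM in IRF8KO and 2.84, 2.28 and 2.59 in IRF8WT, again without overlap (log2 difference -1.36, SE 0.30, adjusted p = 0.00203). Hist1h3c (chr13:23744973-23745602) went the other way. It was at 1.49, 1.88 and 1.55 RPKM in IRF8KO and under 0.001 in all IRF8WT libraries, a log2 difference of 1.40 (SE 0.14, adjusted p = 1.02e-06). The third member that was higher in IRF8KO was Hist1h2ap, an H2A gene, at 1.70, 1.55 and 1.42 RPKM against at most 0.0825. The H4 gene Hist1h4i (chr13:22040636-22041362) was at 3.19, 4.04 and 3.37 RPKM in IRF8KO and 0.856, 1.84 and 1.99 in IRF8WT. These did not overlap, but the log2 difference of 0.85 (SE 0.35) had an adjusted p of 0.0681. The q-value of Hist1h4i in the authors' deposited table was 0.00986. Without the 4 libraries with the length trend, none of them from day 0, its adjusted p was 0.00251 at the same difference.

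**Figure D1:**
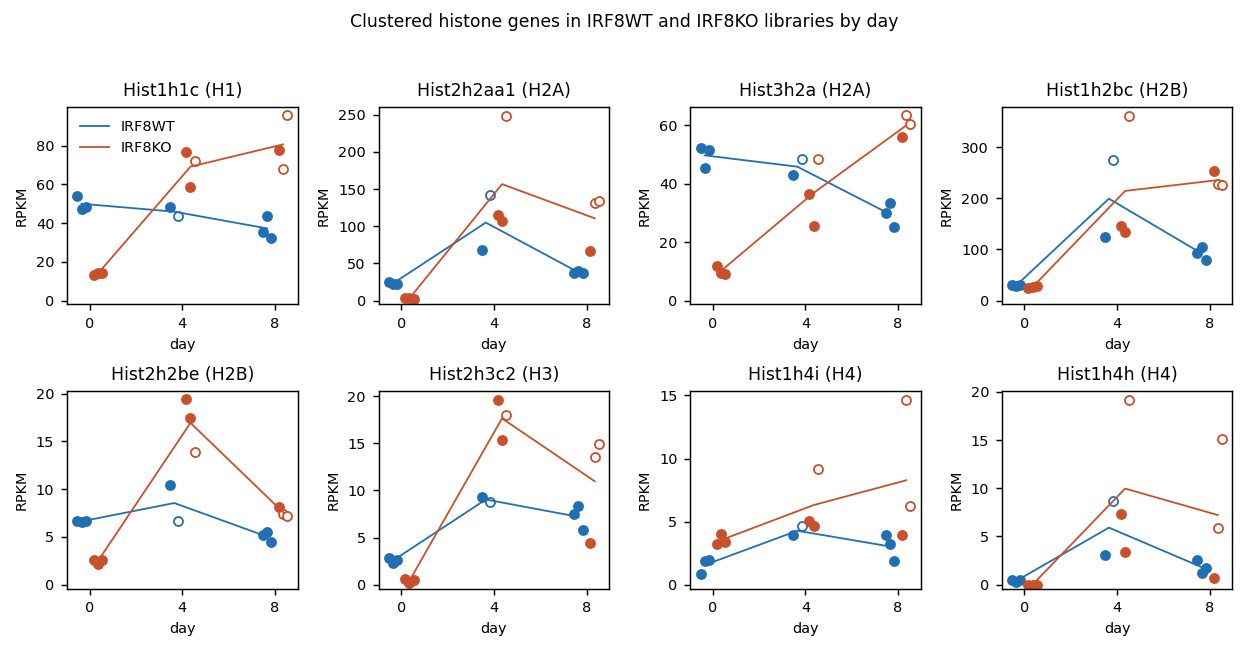
RPKM of 8 clustered histone genes (vertical axes) on days 0, 4 and 8 of M-CSF and RANKL in IRF8WT (blue) and IRF8KO (orange) cultures, with a point for each library, lines through group means and open circles for the 4 libraries with the length trend. On day 0 the IRF8KO points of Hist1h1c, from 13.4 to 14.3, lie below the IRF8WT points, from 47.4 to 54.1, and by day 4 they lie above them.

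Other genes of S phase were higher in IRF8KO on the same day. All 23 tested genes of a DNA replication list (MCM helicase subunits, polymerase and fork factors) were higher in IRF8KO on day 0, with a median log2 difference of 2.85. Their summed level was 1059 ± 14.01 RPKM (SD, n = 3) in IRF8KO and 129.5 ± 4.76 (SD, n = 3) in IRF8WT. All 10 genes of a mitosis list and all 8 of a histone chaperone list were higher too. Slbp, which encodes the stem-loop binding protein, was at 37.3 ± 0.406 RPKM in IRF8KO and 12.7 ± 0.174 in IRF8WT (SD, n = 3 each), a log2 difference of 1.48 (SE 0.15, adjusted p = 8.63e-07). H2afx, an H2A variant gene outside the symbol rule whose transcripts can be polyadenylated, was at a mean of 53.5 RPKM against 4.89 (log2 difference 3.20, SE 0.35, adjusted p = 2.16e-06). The members together took 0.0174 ± 0.000342% of the summed RPKM in IRF8KO and 0.0443 ± 0.00247% in IRF8WT (SD, n = 3 each). The 25 members with a mean under 1 RPKM summed to 8.88 to 11.3 RPKM in IRF8KO and 5.98 to 6.92 in IRF8WT. Their sum was higher in IRF8KO, unlike the share of all members.

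Markers of other cells moved with genotype on day 0. The 6 neutrophil markers summed to 99.2 to 104 RPKM in IRF8KO libraries and 7.62 to 11.5 in IRF8WT libraries, with 4 of 6 markers at a mean of at least 1 RPKM in IRF8KO and 2 of 6 in IRF8WT, and Mpo was at 0 in at least 1 IRF8WT library. The 5 macrophage markers summed to 9497 to 9647 RPKM against 23527 to 24445. The part of these cells in the histone differences was not tested. Without IRF8WT day 0 replicate 1 the 11 called members became 7, and a fit of the day 0 libraries alone called 20.

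In Irf8-/- cultures 13 of the 28 tested members were higher and 2 lower on day 4 of RANKL than on day 0, against 57.9% of all genes tested (13.6% higher and 44.2% lower). The share of members that were higher lay above that of all genes, and the share that were lower below it. Of these calls 3 higher ones (Hist1h1d, Hist1h1e and Hist1h3i) and 1 lower one (Hist1h2bj) passed the filter through a compared group, which leaves 10 and 1, or 8 and 1 with each near-copy pair counted once. Without the 4 libraries with the length trend 13 were higher and 3 lower. The median log2 change of the tested members was 0.59 and that of all genes tested -0.43. The day 0 libraries are shared with the comparison of genotypes, so a low day 0 level enters both.

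The called members included H1, H2A, H2B and H3 genes. Without the libraries with the length trend the changes of Hist1h1c, Hist3h2a, Hist2h2be and Hist2h3c2 below were 2.19, 1.51, 2.49 and 3.72, all still called. Hist1h1c was at 76.8, 58.7 and 71.8 RPKM on day 4, all far above the 13.4 to 14.3 of day 0 (log2 change 2.22, SE 0.16, adjusted p = 1.32e-08). Hist2h2aa1 was at 115, 106 and 248 RPKM on day 4, the third being the library with the length trend. Its log2 change was 5.21 (SE 0.33, adjusted p = 3.47e-09), and 4.83 without the 4 libraries with that trend. Hist3h2a was at 36.5, 25.5 and 48.4 RPKM, above all day 0 values (log2 change 1.72, SE 0.19, adjusted p = 2.17e-06). Hist1h2bc reached 147, 135 and 361 RPKM from 23.7 to 28.4, a log2 change of 2.83 (SE 0.32, adjusted p = 2.08e-06), and of 2.38 without those libraries. Hist2h2be was at 19.4, 17.5 and 13.9 RPKM, well above its day 0 values (log2 change 2.37, SE 0.16, adjusted p = 9.27e-09). Hist2h3c2 was at 19.6, 15.3 and 18.04 RPKM against at most 0.557 on day 0, with a log2 change of 3.73 (SE 0.30, adjusted p = 5.82e-08).

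The H4 members and the low ones were less uniform. Hist1h4h (chr13:23531050-23531519) went from under 0.001 RPKM in each day 0 library to 7.36, 3.42 and 19.1, a log2 change of 3.18 (SE 0.63, adjusted p = 0.00055) that was 2.60 without the libraries with the length trend. Hist1h4i was at 5.04, 4.67 and 9.21 RPKM on day 4, above its day 0 values, and its log2 change of 0.64 (SE 0.35, adjusted p = 0.133) did not pass. Hist1h3i, an H3 gene, was at 4.02, 3.34 and 2.87 RPKM on day 4 and at most 0.415 on day 0. Of the 3 members that were higher in IRF8KO on day 0, Hist1h3c was under 0.001 RPKM in all day 4 libraries (log2 change -1.40, SE 0.14, adjusted p = 6.71e-07). Hist1h2bj was at most 0.197 RPKM on day 4, and Hist1h2ap, at 0.163, 0.420 and 0.646 RPKM, was not called.

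The S-phase genes fell over the same interval. All 23 DNA replication genes were lower on day 4 than on day 0 in IRF8KO, with a median log2 change of -2.97, and their summed level was 124 ± 23.1 RPKM (SD, n = 3). All 10 mitosis genes were lower as well, and Slbp had a log2 change of -1.81 (SE 0.15, adjusted p = 5.96e-08). The members' share of the summed RPKM was 0.130 ± 0.0196% (SD, n = 3), with no overlap with the day 0 libraries. Osteoclast markers summed to 31270 to 46860 RPKM on day 4 and 17.5 to 20.2 on day 0. Their part in the histone changes was not tested.

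**Figure D2:**
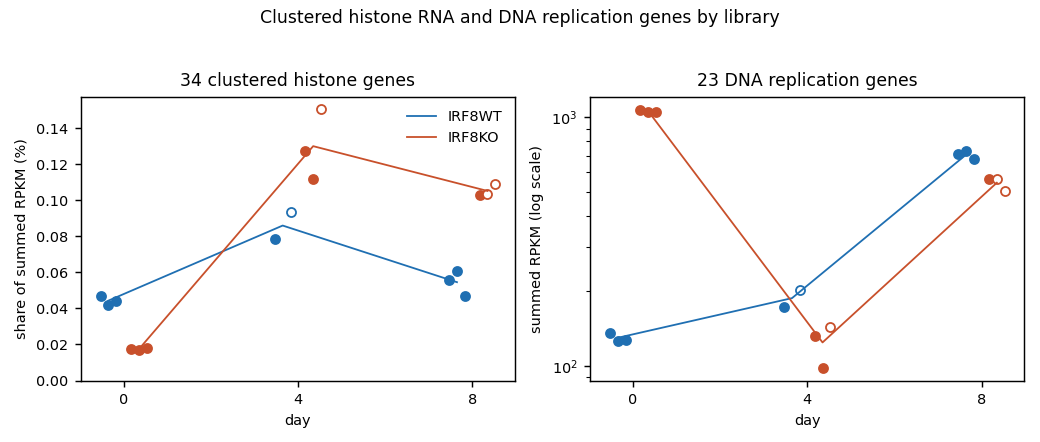
Left, summed RPKM of the 34 members as a percentage of each library's summed RPKM; right, summed RPKM of 23 DNA replication genes on a log axis, both by day for IRF8WT (blue) and IRF8KO (orange), with a point for each library and open circles for the 4 libraries with the length trend. In IRF8KO the share was lowest on day 0 (mean 0.0174%), when the replication genes were highest (mean 1059 RPKM). In IRF8WT both were higher on day 4 than on day 0.

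In Irf8+/+ cultures a smaller set of members rose by day 4. Here 8 of 28 tested members (6 with near-copy pairs counted once) were higher and none was lower, against 43.2% of all genes tested (17.6% higher and 25.6% lower). Without IRF8WT day 0 replicate 2, or without IRF8WT day 4 replicate 3, the count was 5. Hist1h2bc was at 124 and 274 RPKM on day 4 against 29.2 to 30.2 on day 0, both above (log2 change 2.59, SE 0.35, adjusted p = 5.96e-05). The higher of these was the library with the length trend, and without it the change was 2.02. Hist2h2aa1 was at 68.4 and 141 RPKM, above the 21.7 to 25.6 of day 0 (log2 change 2.04, SE 0.37, adjusted p = 0.000595), and the change was 1.52 without that library. Hist2h3c2 was at 9.33 and 8.73 RPKM against 2.28 to 2.84 (log2 change 1.49, SE 0.34, adjusted p = 0.0032, or 1.54 without that library). Leaving out the 4 libraries with the length trend leaves 1 IRF8WT library on day 4, so no count is given here for that setting. Hist1h1c, at 48.2 and 43.6 RPKM, and Hist3h2a, at 43.02 and 48.5, overlapped or lay next to their day 0 values. Neither passed (adjusted p = 0.611 and 0.697). Unlike in IRF8KO, the DNA replication genes did not fall with the rise of the members. Their sum was 172 and 202 RPKM on day 4, against 126 to 135 on day 0. The members' share of the summed RPKM was 0.0783 and 0.0937%, against 0.0418 to 0.0468%. The second value of each pair is from the library with the length trend.

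The test of the difference between the genotypes' changes from day 0 to day 4 was passed by 8 members with the larger change in IRF8KO and 1 with the smaller, against 27.6% of all genes tested (5.85% larger and 21.7% smaller). The change was larger in IRF8KO by 3.17 on the log2 scale for Hist2h2aa1 (SE 0.49, adjusted p = 0.000179). For Hist1h1c it was larger by 2.34 (SE 0.24, adjusted p = 2.64e-06), for Hist2h3c2 by 2.24 (SE 0.45, adjusted p = 0.00164), for Hist2h2be by 2.07 (SE 0.24, adjusted p = 1.35e-05) and for Hist3h2a by 1.84 (SE 0.29, adjusted p = 0.000216). Hist1h3c changed the other way, at -1.504 (SE 0.21, adjusted p = 7.45e-05). Hist1h2bc, which rose in both genotypes, differed by 0.24 (SE 0.48, adjusted p = 0.754). With near-copy pairs counted once and without Hist1h3i, which passed the filter through IRF8KO day 4, these counts were 5 and 1. Without the 4 libraries with the length trend 15 members passed, a setting that leaves 1 IRF8WT library on day 4.

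On day 4 itself few members differed between genotypes: 3 of 28 were higher in IRF8KO and none was lower, against 13.4% of all genes tested (3.06% higher and 10.3% lower). They were Hist2h2be (log2 difference 0.92, SE 0.18, adjusted p = 0.00256), Hist1h1c (0.57, SE 0.18, adjusted p = 0.0433) and Hist1h3i, which passed the filter only through IRF8KO day 4. A fit of the day 4 libraries alone in limma called none of them (over all groups 7 of the 28 had an unadjusted p under 0.05), and the q-values in the authors' deposited table were 0.382, 0.359 and 0.363. Hist1h1c lost its call without the 4 libraries with the length trend, at 0.47 and an adjusted p of 0.056. Leaving out IRF8KO day 4 replicate 3 gave 6 called members, and leaving out IRF8WT day 4 replicate 3 gave 1.

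On day 8, 10 of the 28 tested members were higher and 1 was lower in Irf8-/- than in Irf8+/+ cultures, against 31.2% of all genes tested (8.62% higher and 22.6% lower), with a median log2 difference of 0.42 against -0.18 over all genes. Hist1h1e, Hist1h3d and Hist1h4b passed the filter through IRF8KO day 8, which leaves 7 and 1, or 6 and 1 with each near-copy pair counted once. Without the libraries with the length trend 6 were higher and 6 lower. Hist1h1c was at 77.9, 68.1 and 95.7 RPKM in IRF8KO and 35.6, 43.9 and 32.4 in IRF8WT, without overlap (log2 difference 1.09, SE 0.16, adjusted p = 0.000331). Hist3h2a was at 55.8, 63.4 and 60.4 RPKM against 29.9, 33.4 and 25.2, without overlap (log2 difference 1.00, SE 0.19, adjusted p = 0.00244). Hist1h2bc was at 253, 228 and 225 RPKM against 93.1, 105 and 78.9, again without overlap (log2 difference 1.35, SE 0.32, adjusted p = 0.00704). Without the libraries with the length trend, which leaves 1 IRF8KO library, these differences were 1.06, 0.90 and 1.46.

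Other members moved more when those libraries were left out. Hist2h2aa1 was at 66.1, 132 and 134 RPKM in IRF8KO, the latter pair being the libraries with the length trend, and at 36.9, 39.7 and 37.6 in IRF8WT. All IRF8KO values were higher (log2 difference 1.45, SE 0.33, adjusted p = 0.00586), by 0.78 without those libraries. Hist1h4i was at 3.92, 14.7 and 6.25 RPKM against 3.95, 3.22 and 1.91, which overlapped, and its difference of 1.07 (SE 0.35, adjusted p = 0.0335) was 0.32 (adjusted p = 0.336) without them. Hist2h3c2, which did not pass, was at 4.45, 13.5 and 14.9 RPKM against 7.47, 8.34 and 5.77, and its difference turned to -0.58 (adjusted p = 0.0297). Hist1h3c was the member that was lower in IRF8KO, with 2 libraries under 0.001 RPKM and 1 at 0.241 against 1.65, 1.14 and 0.778 (log2 difference -1.01, SE 0.14, adjusted p = 0.000252). Leaving out any 1 of the IRF8WT day 8 libraries gave 7 called members in place of 11.

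The DNA replication genes were lower or not called on day 8, with 13 of 23 lower in IRF8KO and none higher. Their sum was 545 ± 35.2 RPKM in IRF8KO and 709 ± 27.3 in IRF8WT (SD, n = 3 each). Stromal markers summed to 96.5 to 622 RPKM in IRF8WT libraries and 1.97 to 17.8 in IRF8KO libraries, with Dcn at 0 in at least 1 IRF8KO library, and their part in the differences was not tested.

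From day 4 to day 8 fewer members were called. In IRF8KO 2 were higher and 4 lower, against 31.6% of all genes tested (22.6% higher and 9% lower). Without Hist1h4b and Hist1h3i, which passed the filter through a compared group, 1 was higher and 3 lower. Hist2h2be fell to 8.16, 7.41 and 7.17 RPKM, below all day 4 values (log2 change -1.05, SE 0.16, adjusted p = 0.000233), while Hist3h2a rose by 0.73 (SE 0.19, adjusted p = 0.0106). The count was 3 without IRF8KO day 4 replicate 2 and 10 without IRF8KO day 8 replicate 2. It was 13 without the libraries with the length trend, where Hist2h2aa1 (-0.74), Hist2h3c2 (-1.75) and Hist1h4h (-1.82) were called lower and Hist1h2bc (0.84) higher. In IRF8WT 1 member was higher and 3 were lower, against 23% of all genes tested (16.2% higher and 6.79% lower). Hist2h2aa1 fell by 1.35 on the log2 scale (SE 0.37, adjusted p = 0.0142), or by 0.83 without the library with the length trend, and Hist1h3c rose by 1.01 (SE 0.16, adjusted p = 0.000242). All 23 replication genes were higher on day 8 than on day 4 in IRF8WT, and 22 of 23 in IRF8KO.

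**Figure D3:**
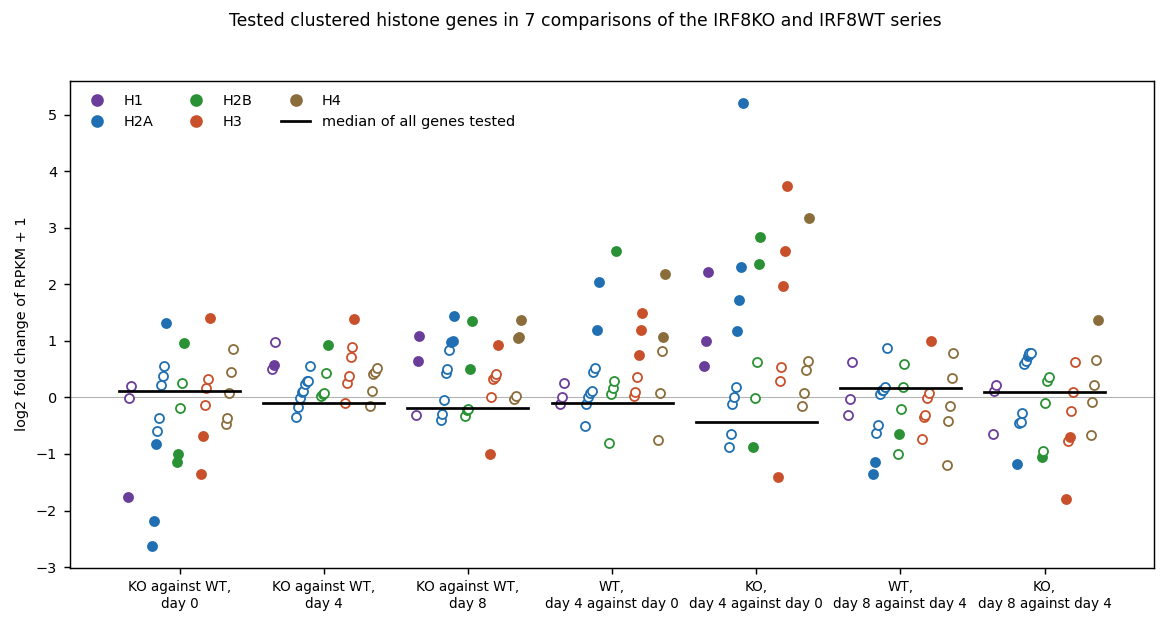
Log2 differences of the 28 tested members (points, coloured by histone class, filled where the adjusted p was under 0.05) in 7 comparisons of the first experiment, with a black line for the median of all genes tested. In IRF8KO from day 0 to day 4 the members' median was 0.59 and that of all genes -0.43.

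In cells that received a construct the members again differed on day 0, in both directions. Against mock, 4 of 27 tested members were higher and 5 lower with hIRF8WT, where 74.7% of all genes tested were called (48.1% higher and 26.6% lower). With hIRF8G388S 5 were higher and 3 lower, against 73.1% (49.3% higher and 23.8% lower). With hIRF8379-389 6 were higher and 3 lower, against 73.2% (49.6% higher and 23.6% lower). These shares of members lay below the background. Hist1h2ae, a lower member in all 3, passed the filter through mock day 0, as did Hist1h4d for hIRF8WT. The 3 comparisons share the mock libraries, so the values are set side by side.

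Hist1h1c was at 10.7, 10.8 and 8.41 RPKM in mock and at 21.6, 19.2 and 27.3 with hIRF8WT. It was at 26.8, 28.04 and 28.9 with hIRF8G388S and 32.5, 24.8 and 18.7 with hIRF8379-389. All construct libraries were above all mock libraries, with log2 differences of 1.11 (SE 0.15, adjusted p = 2.92e-07), 1.40 (SE 0.15, adjusted p = 5.67e-09) and 1.24 (SE 0.15, adjusted p = 5.15e-08). Hist2h2be was at 0.801, 0.534 and 0.464 RPKM in mock and at 1.36 to 1.86 over the 9 construct libraries, without overlap, at log2 differences of 0.73, 0.65 and 0.62 in the same order (SE 0.08 each, adjusted p = 7.85e-09, 5.9e-08 and 1.53e-07). Hist2h3c2 was at 0.140 RPKM in 1 mock library and under 0.001 in the others, against 0.409 to 1.79 with the constructs. Its log2 differences were 0.81, 1.32 and 1.02, and all passed.

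Hist1h2bc was higher in mock. It was at 114, 90.8 and 68.3 RPKM there and at 38.8, 24.4 and 41.1 with hIRF8WT. With hIRF8G388S it was at 43.4, 40.3 and 42.2, and with hIRF8379-389 at 47.4, 48.2 and 25.8. No construct library reached the mock range, and the log2 differences were -1.37 (SE 0.19, adjusted p = 3.5e-07), -1.07 (SE 0.19, adjusted p = 1.41e-05) and -1.17 (SE 0.19, adjusted p = 3.93e-06). Hist2h2aa1 was at 28.4, 21.8 and 10.8 RPKM in mock and 7.44, 9.50 and 11.4 with hIRF8WT, which overlapped (log2 difference -0.95, SE 0.20, adjusted p = 0.00014). All 3 mock day 0 libraries carried the length trend, with correlations of -0.49 to -0.36, and no construct library of day 0 did. In the day 0 differences printed here for every member, mock and that trend therefore cannot be told apart. With that trend subtracted the difference of Hist2h2aa1 was -0.12 and no longer passed for hIRF8WT, and it was 0.30, of the opposite sign and called, for each of the other constructs. The DNA replication genes were mostly higher with hIRF8WT, 20 of 23 and none lower. Neutrophil markers summed to 450 to 716 RPKM in mock and 161 to 258 with hIRF8WT, with Elane at 0 in at least 1 mock library, and their part was not tested.

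No member differed between hIRF8G388S and hIRF8WT on day 0 with limma (4 had an unadjusted p under 0.05, and 0.765% of all genes tested were called), nor between hIRF8379-389 and hIRF8WT (2 unadjusted, 0.0176% called). Without hIRF8WT day 0 replicate 3 the first of these counts was 3. For Hist1h1c these log2 differences were 0.30 (SE 0.15, adjusted p = 0.28) and 0.13 (SE 0.15, adjusted p = 0.876). A difference of that size was within the libraries' spread, which does not show that the constructs act alike.

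On day 4 Hist1h2bc and Hist2h3c2 were lower with hIRF8WT than in mock. In all 1 member was higher and 4 were lower, against 47.5% of all genes tested (23.8% higher and 23.7% lower). Hist1h2bc was at 45.2, 50.5 and 49.8 RPKM against 95.5, 91.4 and 80.0, without overlap (log2 difference -0.86, SE 0.19, adjusted p = 0.000526). Hist2h3c2 was at 1.44, 1.92 and 1.46 RPKM against 4.01, 3.47 and 4.00, also without overlap (log2 difference -0.89, SE 0.16, adjusted p = 8.51e-05). The hIRF8WT day 4 libraries alone have another name prefix in the table, so the construct and that prefix cannot be told apart. The count was 3 without hIRF8WT replicate 1 or without any 1 of the mock libraries, and a fit of the 2 groups alone called 9. With hIRF8G388S 1 member was called on day 4 (26.3% of all genes tested), Hist2h2be, with a log2 difference of -0.45 (SE 0.08, adjusted p = 8.63e-05), and the count was 2 without hIRF8G388S day 4 replicate 3. With hIRF8379-389 the called members were Hist2h2be (-0.24, SE 0.08, adjusted p = 0.0222) and Hist1h3c (0.95, SE 0.29, adjusted p = 0.0144), against 30% of all genes tested, and 1 without mock day 4 replicate 2.

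Within mock cells Hist2h3c2, Hist2h2be and Hist1h1c rose from day 0 to day 4. In all 7 of 27 members were higher and 1 was lower, against 73.5% of all genes tested (50.9% higher and 22.6% lower). The lower one, Hist1h2ae, passed the filter through mock day 0, which leaves 7 and 0, or 6 and 0 with each near-copy pair counted once. The log2 change was 2.21 for Hist2h3c2 (SE 0.16, adjusted p = 6.97e-12), 2.05 for Hist2h2be (SE 0.08, adjusted p = 1.22e-17) and 1.20 for Hist1h1c (SE 0.15, adjusted p = 8.23e-08). Hist1h2bc, at 95.5, 91.4 and 80.0 RPKM on day 4, lay within its day 0 range, with a log2 change of -0.01 (SE 0.19, adjusted p = 0.975). With the length trend subtracted its change was 0.44 and called. From day 4 to day 8 no mock member was called by limma (3 had an unadjusted p under 0.05, and 32% of all genes tested were called), and 2 were called without mock day 8 replicate 2.

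On day 8, 5 members were lower with hIRF8WT than in mock and none was higher, against 30.6% of all genes tested (14.6% higher and 16% lower). The share of members that were lower lay near the background. Hist1h2bc was at 47.7 and 52.3 RPKM against 109 and 87.3 (log2 difference -0.95, SE 0.23, adjusted p = 0.00226), and Hist2h2be at 2.72 and 2.47 against 4.82 and 4.46 (log2 difference -0.65, SE 0.10, adjusted p = 8.81e-06). Neither pair of groups overlapped. Hist2h2aa1 was at 13.3 and 13.6 RPKM against 29.6 and 23.2 (log2 difference -0.91, SE 0.24, adjusted p = 0.00539). The count was 3 without hIRF8WT day 8 replicate 2 or mock day 8 replicate 2, and both mock libraries carried the length trend.

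**Figure D4:**
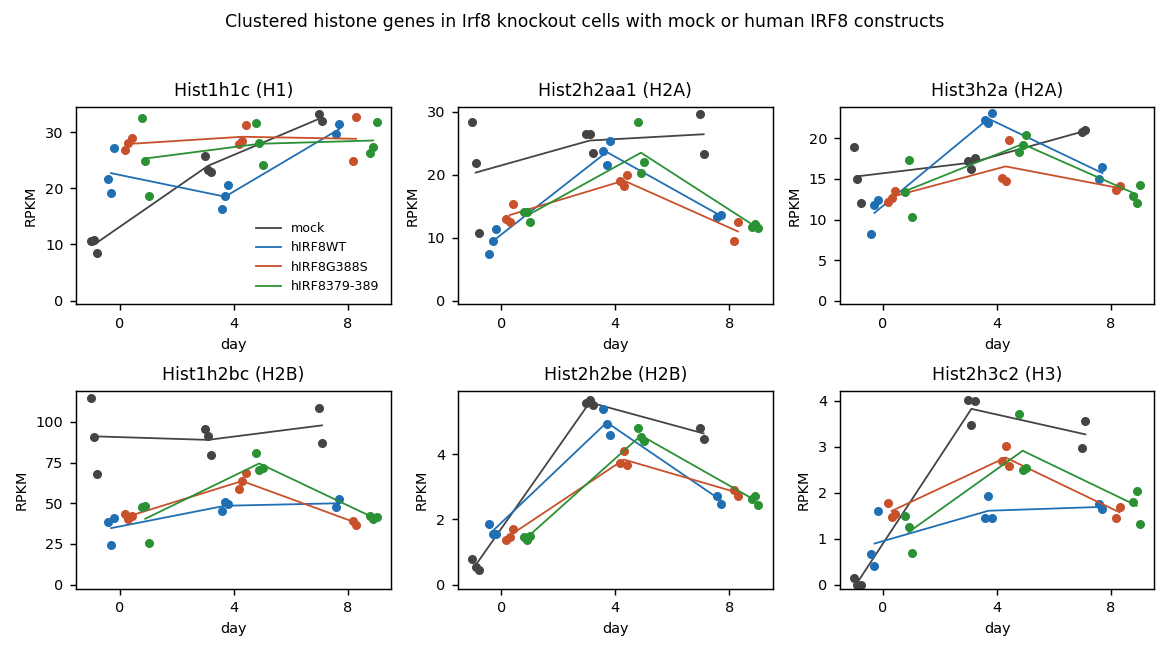
RPKM of 6 clustered histone genes by day in cells labelled mock and in Irf8-/- cells transduced with hIRF8WT, hIRF8G388S or hIRF8379-389, with a point for each library. On day 0 the mock points of Hist1h2bc, from 68.3 to 114, lie above all construct points, and those of Hist1h1c, from 8.41 to 10.8, below them.

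In macrophages of the same 4 kinds, Hist1h1c, Hist2h2be and Hist1h2bc were lower with IFNg and lower again after 4 h of IFNg plus LPS. The filter was passed by 15 members. The contrasts average the 4 kinds, with 8 libraries for each condition. IFNg alone against untreated gave 1 member higher and 5 lower, against 71.9% of all genes tested (22.3% higher and 49.6% lower). Of the lower ones Hist1h3d passed the filter through untreated libraries, which leaves 1 higher and 4 lower. Against IFNg alone, adding LPS gave 7 lower after 1 h, 9 after 4 h and 10 after 8 h, with none higher. Of all genes tested 60.1%, 89.2% and 85.2% were called, and 48.9%, 73.9% and 66% were lower, so the shares of members that were lower lay near or below the background. With near-copy pairs counted once, the members lower were 5, 7 and 8. Without the shallowest library Hist1h1c and Hist1h4i were called higher at 1 h, by 0.31 and 0.41 on the log2 scale. These 3 comparisons share the IFNg libraries. The median log2 change of the 15 members after 4 h was -0.42, and that of all genes tested -0.74.

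Hist1h1c spanned a wide range. Its lowest, median and highest values were 14.1, 60.3 and 87.3 RPKM untreated, 5.53, 12.7 and 18.5 with IFNg, and 9.78, 13.9 and 22.5 after 1 h of LPS. After 4 h they were 0.606, 2.04 and 2.78, and after 8 h 2.56, 4.07 and 5.79. Untreated and IFNg libraries overlapped through 1 untreated library (the shallowest), at 14.1 against 87.3 in its partner, and the 4 h libraries lay below those of every other condition except 1 value of the 8 h libraries. The log2 change was -2.12 with IFNg (SE 0.21, adjusted p = 2.81e-09), or -2.44 without that library. It was -2.14 from IFNg to 4 h of LPS (SE 0.21, adjusted p = 8.3e-10) and -1.24 to 8 h (SE 0.21, adjusted p = 7.55e-06). The 2 mock libraries with IFNg were at 5.65 and 5.53 RPKM and the constructs at 11.1 to 18.5.

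Hist2h2be was lower with IFNg than untreated (log2 change -0.38, SE 0.09, adjusted p = 0.00105) and lower with LPS than with IFNg. Its medians were 3.93 RPKM untreated, 3.05 with IFNg, 1.48 after 1 h of LPS, 0.193 after 4 h and 0.354 after 8 h. The highest value after 4 h, 0.220, lay below the lowest after 8 h, 0.246, and below the lowest after 1 h, 0.726. The log2 change from IFNg was -0.73 after 1 h (SE 0.09, adjusted p = 4.19e-07), -1.74 after 4 h (SE 0.09, adjusted p = 7.94e-15) and -1.57 after 8 h (SE 0.09, adjusted p = 9.92e-14). Hist1h2bc, the other H2B gene, had medians of 61.1, 34.5, 22.6, 14.4 and 24.3 RPKM in the same order. Its untreated and IFNg libraries did not overlap, and it fell by 0.78 with IFNg (SE 0.06, adjusted p = 9.49e-11) and by a further 1.14 to 4 h of LPS (SE 0.06, adjusted p = 1.39e-14).

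Hist3h2a was the 1 member higher with IFNg, with values of 40.4 to 56.7 RPKM untreated and 59.3 to 81.2 with IFNg, without overlap (log2 change 0.55, SE 0.08, adjusted p = 1.15e-06). It fell after LPS, to a median of 30.9 RPKM at 1 h, with a log2 change from IFNg of -1.24 (SE 0.08, adjusted p = 1.61e-12). At 4 h its median was 31.5 and at 8 h 26.1, with log2 changes from IFNg of -1.10 and -1.45. Hist2h2aa1 had medians between 28.4 and 35.2 RPKM in the 5 conditions. Its small fall at 1 h passed (log2 change -0.36, SE 0.10, adjusted p = 0.00418). With the library-name prefix described below as a term, its change was -0.57 (adjusted p = 0.0552) at 1 h and was called lower at 4 h (-0.71, adjusted p = 0.039) and 8 h (-0.89, adjusted p = 0.03). With the libraries scaled by their median ratio, a setting that moved the median of all genes at 4 h by 0.52, the change of Hist2h2aa1 was 0.58 at 4 h and 0.16 at 8 h, both higher and called, and that of Hist1h2bc at 8 h was -0.02.

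The prefix of the library names in the table, which may mark a batch, differs between these conditions. Within 1 prefix, the IFNg change of Hist1h1c was -3.52 in mock, -1.10 with hIRF8WT and -2.13 with hIRF8G388S, on the log2 scale with 2 libraries on each side. The hIRF8WT value rests on the shallowest library and was -2.37 without it. The change of Hist1h2bc was -0.96, -0.83 and -0.69, and that of Hist3h2a 0.37, 0.61 and 0.66. The step from IFNg to 1 h of LPS lay within 1 prefix for hIRF8379-389 alone, where Hist3h2a changed by -1.32 and Hist1h2bc by -1.02. From 1 h to 4 h it did so for mock alone, where Hist1h1c changed by -2.56. With the prefix as a term the change of Hist1h1c at 4 h was -2.68 and that of Hist3h2a at 1 h -1.16, both called. Hist2h3c2 lost its calls at 1 h (adjusted p = 0.198) and 8 h (adjusted p = 0.0843), and the counts became 4 at 1 h and 6 at 8 h. Without hIRF8G388S IFNg replicate 2 the 8 h count was 6. Of 21 tested DNA replication genes 19 were lower at 4 h and 20 at 8 h.

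Averaged over the 5 conditions, few members differed between the constructs and mock. With hIRF8WT 2 of 15 were higher and none lower, against 35.7% of all genes tested: Hist3h2a, by 0.38 on the log2 scale (SE 0.07, adjusted p = 0.000113), and Hist1h1c, by 0.52 (SE 0.19, adjusted p = 0.0324). The count was 6 without hIRF8WT untreated replicate 2 and 1 without any 1 of 8 others: mock with IFNg replicate 2, with LPS for 1 h replicate 2, for 4 h replicate 1 and for 8 h replicate 2, and hIRF8WT with IFNg replicate 1, with LPS for 1 h replicate 2, for 4 h replicate 1 and for 8 h replicate 2. With hIRF8G388S 2 were higher and 1 lower (35.9% of all genes tested), and with hIRF8379-389 1 and 1 (38.3%), Hist1h2bc being the lower member in both, by -0.35 and -0.34. Hist1h4k, a higher member with hIRF8G388S, passed the filter through 1 compared side, which leaves 1 and 1 there. The count for hIRF8379-389 was 4 without mock untreated replicate 2. Without the shallowest library Hist1h1c was higher with each construct, by 0.77 (hIRF8WT), 0.47 (hIRF8G388S) and 0.41 (hIRF8379-389). In the same order Hist2h3c2 differed by -0.08, -0.24 and -0.28. That setting leaves 1 untreated hIRF8WT library.

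**Figure D5:**
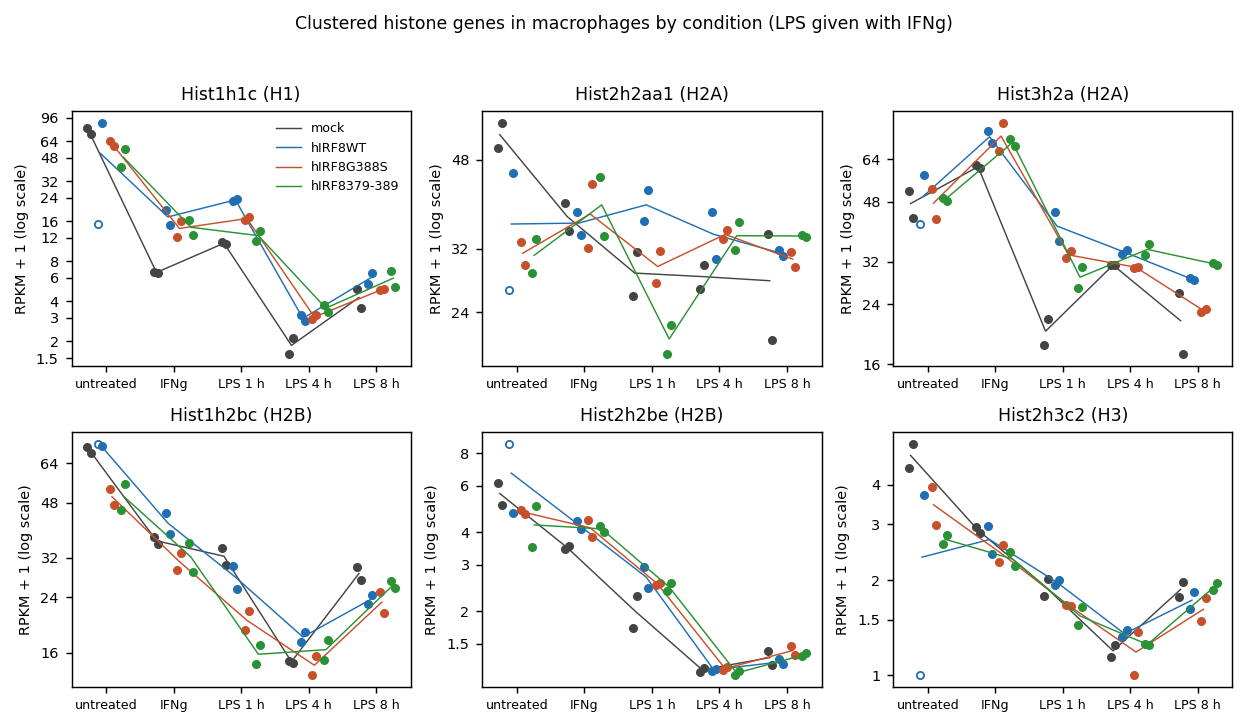
RPKM + 1 on a log axis for 6 clustered histone genes in macrophages labelled mock, hIRF8WT, hIRF8G388S or hIRF8379-389 under 5 conditions, with a point for each library and an open circle for the shallowest library. Hist1h1c had its lowest median, 2.04 RPKM, after 4 h of IFNg plus LPS, and Hist3h2a its highest, 69.8 RPKM, with IFNg alone.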

How the data were processed

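The authors deposited RPKM per gene for 90 libraries, aligned to mm10 with TopHat2 2.1.0 after CASAVA 1.8.4 or bcl2fastq 2.17.1, with Partek also named, per the submitters' processing notes. RPKM scales to mapped reads, and the annotation and the rule for reads that fit several genes are not given in the sources used here. Members and lists were chosen with earlier results of these data known. The named genes are the members, ordered by mean level or size of change, with those at a mean of at least 1 RPKM first. Each experiment (17, 33 and 40 libraries) was fitted apart in limma 3.58.1 (R 4.3.3) on log2(RPKM + 1), a scale that understates changes of low genes, keeping genes at or over 1 RPKM in at least 2 libraries, with adjustment over all genes and a threshold of 0.05. The procedure was tested on simulated data. Gene length came from GENCODE M21 for 97.1% of genes, and the length trend was subtracted by lowess (span 0.3). Figures were drawn with matplotlib 3.10.9. Groups came from the labels. Alternatives were a pseudocount of 0.1, scaling by median ratios, a replicate block, leaving out each library, and subtracting the trend. Depth limits low members: 1 read over 500 bases is worth 0.0164 to 9.16 RPKM (median 0.0486). The q-values of the genotype comparison come from the authors' deposited tables. Counts without members that passed the filter through 1 compared group, and with near-copies counted once, were added after seeing the data.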

Additional observations from a re-analysis of the deposited data

Results flagged for a closer look

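In 9 members the change from day 0 to day 4 of RANKL differed between Irf8-/- and Irf8+/+ cultures by limma's test of the difference itself. The change in IRF8KO minus that in IRF8WT was 3.174 on the log2 scale for the H2A gene Hist2h2aa1 and 1.115 for its near-copy Hist2h2aa2. It was 2.342 for the linker histone gene Hist1h1c. For the H3 gene Hist2h3c2 it was 2.243, and for its near-copy Hist2h3c1 1.405. It was 2.068 for the H2B gene Hist2h2be and 1.839 for the H2A gene Hist3h2a. For the H3 gene Hist1h3i it was 1.22, and this gene passed the level filter only through IRF8KO day 4. For the H3 gene Hist1h3c it was -1.504. Without the 4 libraries with the length trend the differences were 3.31 for Hist2h2aa1, 2.24 for Hist1h1c, 2.18 for Hist2h3c2, 1.91 for Hist2h2be, 1.71 for Hist3h2a and -1.41 for Hist1h3c.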

How the results depend on the processing

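Of the 267 results for single members, 120 were called, and 76 of these kept direction and call under every alternative run. Over 4133 alternatives for single members 10 turned direction. Without the libraries with the length trend, Hist2h3c2 (-0.58) and Hist2h3c1 (-0.44) did so between genotypes on day 8. With that trend subtracted, so did Hist2h2aa1 on day 0 against mock for hIRF8G388S (0.30) and hIRF8379-389 (0.30), Hist1h2bc in mock from day 0 to day 4 (0.44) and Hist2h3c1 with IFNg (0.16), at 4 h (0.14) and at 8 h (0.037) of LPS. With median-ratio scaling, so did Hist2h2aa1 at 4 h (0.58) and 8 h (0.16). The cause was not tested.

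Counts of called members moved by over 1.5 times as follows. A fit of the compared groups alone gave, between genotypes, 20 on day 0, 0 on day 4 (7 of the 28 had an unadjusted p under 0.05 in limma over all groups) and 7 on day 8, and 3 in IRF8KO from day 4 to day 8. It gave 4, 9 and 8 for hIRF8WT against mock on days 0, 4 and 8. On day 4 it gave 8 for hIRF8G388S and 4 for hIRF8379-389, and 3 in mock from day 4 to day 8. In macrophages it gave 1, 5 and 5 for hIRF8WT, hIRF8G388S and hIRF8379-389. With the length trend subtracted the genotypes differed in 8 members on day 4 and 5 on day 8, and IRF8WT from day 4 to day 8 in 7. Against mock on day 0 the counts were 17, 13 and 14 in that order, on day 4 they were 3 for hIRF8G388S and 4 for hIRF8379-389, and in mock from day 4 to day 8 the count was 3. In macrophages it was 5 at 8 h of LPS and 4 for hIRF8379-389. Median-ratio scaling gave 6 between genotypes on day 4, 8 in IRF8WT from day 4 to day 8, 2 for hIRF8G388S on day 4, 1 in mock from day 4 to day 8 and 4 at 8 h. Without the libraries with the length trend the counts were 6 between genotypes on day 4, 9 and 13 in IRF8WT and IRF8KO from day 4 to day 8, and 15 for the difference of changes. A pseudocount of 0.1 gave 3 for hIRF8WT on day 8 and 1 for hIRF8379-389 on day 4. Without the shallowest library, hIRF8G388S gave 5 and hIRF8379-389 4 in macrophages. The name prefix as a term, an alternative chosen after seeing the data, gave 4 at 1 h and 6 at 8 h.

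Leaving out each library in turn gave 7 to 8, 1 to 6 and 7 to 14 between genotypes on days 0, 4 and 8. It gave 13 to 16 and 3 to 10 for the steps in IRF8KO, 5 to 7 and 3 to 5 for those in IRF8WT, and 7 to 11 for the difference of changes. Against mock it gave 6 to 9, 3 to 5 and 3 to 5 for hIRF8WT, 6 to 9 and 1 to 2 for hIRF8G388S, and 6 to 9 and 1 to 2 for hIRF8379-389. Within mock it gave 6 to 8 and 0 to 2, and between hIRF8G388S and hIRF8WT 0 to 3. In macrophages it gave 6 to 9 for IFNg and 6 to 7, 7 to 9 and 6 to 10 for LPS, and 1 to 6, 2 to 4 and 2 to 4 for the constructs.

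Same-numbered libraries deviated together at a correlation over 0.1 in 13 of 40, 48 of 168 and 92 of 380 pairs. The median correlations were -0.0053, -0.0093 and -0.0054. In the first experiment they ran from -0.35 to 0.90, so these values cannot tell whether some groups were paired. With a replicate block the count in mock from day 4 to day 8 was 2, and no other count moved by over 1.5 times.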
